A study of Rattus norvegicus with 15 samples.

Results

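The Wnt ligands, their receptors and the proteins that regulate them were followed in H9c2 cells, an established myoblast line isolated from embryonic rat heart ventricle, during culture with and without all-trans retinoic acid (RA), the signalling form of vitamin A, whose receptors are nuclear transcription factors. Members were chosen by gene symbol, by a rule that uses no measured value but was drawn up with earlier results of these data known: 41 of the 11574 genes of the count table carried a symbol on the list of Wnt, Frizzled, co-receptor, antagonist, R-spondin, β-catenin pathway, TCF/LEF and planar polarity names. The 15 libraries fell into 5 groups of 3 cultures. T0 cultures were harvested 24 h after seeding in medium with 10% fetal bovine serum and had no RA. T7-RA and T14-RA cultures were kept to day 7 and day 14 after serum was lowered to 1% and received no RA. T7+RA and T14+RA cultures were kept in the same low serum and received 1 µM RA every day. The sources name DMSO as the solvent of RA and do not say whether the -RA cultures received it. All cultures came from the same line, and the time of culture and the lowering of serum cannot be told apart in this design.

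Wnt proteins are secreted lipid-modified ligands that bind Frizzled receptors together with a co-receptor. In the canonical branch, binding of Lrp5 or Lrp6 halts the destruction of β-catenin, which then enters the nucleus and acts with TCF/LEF factors. In the planar polarity branch, Prickle and Vangl proteins give cells an orientation within a tissue, and β-catenin is not required. Secreted antagonists trap the ligand or its co-receptor, and R-spondins acting through Lgr receptors protect Frizzleds from removal. Wnt signals are known to guide the early steps of skeletal and cardiac muscle formation.

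Stranded mRNA libraries held 508397 to 1030820 counts each. Levels are given as CPM, the field's usual count unit relative to the total of a library, with each library scaled by the trimmed mean of M values (TMM), and, where genes are compared with each other, as CPM per kilobase of the gene length in the deposited annotation. All 41 members had passed the authors' minimum summed count, which a gene can pass through the group where it is high. Of the 41, 23 had at least 10 counts in every library, and 12 of these passed a test below, where 30.4% of all genes of that depth did. Of the 18 members with fewer, 3 passed, where 12.7% of such genes did. Markers of skeletal muscle (8 of 11 listed genes analysed; Myf5, Myf6 and Pax7 were not analysed here) summed to 909.7 to 931 CPM at T0, to 2947 to 3379.8 CPM at day 7 without RA and to 9472 to 9867 CPM at day 14 without RA. With RA the same markers summed to 1913 to 2216 CPM at day 7 and 4134 to 4860.3 CPM at day 14. The 6 cell cycle genes summed to 1546 to 1731 CPM at T0. Without RA they summed to 1142 to 1192 CPM at day 7 and 593 to 673 CPM at day 14, and with RA to 1002 to 1051 CPM and 416 to 560.2 CPM. Most of the skeletal muscle sum in T14-RA was Myh3, at 5056 ± 139 CPM, and Acta1, at 3258 ± 154 CPM. Another 2 skeletal muscle markers had lower means in later cultures without RA. The myoblast factor Myod1 stood at 115 ± 40.2 CPM at T0, 87.9 ± 10.2 CPM in T7-RA and 80.2 ± 16.0 CPM in T14-RA, and the cadherin Cdh15 at 638 ± 19.6, 460.3 ± 56.9 and 324 ± 35.7 CPM. Only 3 of 11 cardiomyocyte markers were analysed here, and they summed to 12.4 to 51.6 CPM over all libraries. The 5 smooth muscle markers summed to 15547 to 17043 CPM at T0 and to 3471 to 5460.1 CPM in all later libraries. Most of the T0 sum was Acta2, at 12684 ± 323 CPM. Acta2, Tagln, Cnn1 and Smtn had lower means in every later group, whereas Myh11 stood at 10.0 ± 1.55 CPM at T0. Its later group means ran from 7.72 ± 2.43 CPM in T7+RA to 13.2 ± 3.31 CPM in T14-RA. The 4 fibroblast markers of 7 that were analysed summed to 18448 to 37564 CPM over all libraries, nearly all of it Col1a1 (29893 ± 6673 CPM at T0). Dcn and Lum, the matrix proteins decorin and lumican, were at 0 in all T0 libraries. Dcn stood at 50.5 ± 7.19 CPM in T14-RA and 119.8 ± 30.3 CPM in T14+RA, and Lum at 28.5 ± 2.70 and 6.24 ± 1.34 CPM. The means of the remaining fibroblast markers were lower at day 14 than at T0. Col1a1 stood at 20184 ± 104 CPM in T14-RA and 21092 ± 2596 CPM in T14+RA. Thy1 stood at 290 ± 43.9 CPM at T0, 270 ± 13.3 CPM in T14-RA and 180 ± 30.2 CPM in T14+RA. The 1 endothelial marker of 5 stood at 0 to 6.29 CPM. The part of these shifts in the results for the Wnt genes was not tested, and in bulk samples fewer cells of a type and less RNA per cell cannot be told apart.

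The question put by the design is which changes go with culture and which go with RA. An additive model with T7, T14 and RA terms was fitted in edgeR: its T7 and T14 terms give changes from T0 after allowing for RA, and its RA term averages the change with RA over both days. Genes were called at an adjusted p under 0.001 over all 11574 genes. A change is given as the log2 fold change ± its standard error, with n = 3 cultures per group. For RA, 7 of 41 members were called (17.1%), where 6.39% of all genes were. Sfrp4, Prickle1, Prickle2 and Wls were higher with RA, and Wif1, Lgr4 and Tcf7l1 were lower. The plot of the RA-called members shows these 7 genes in every library.

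**Figure D1:**
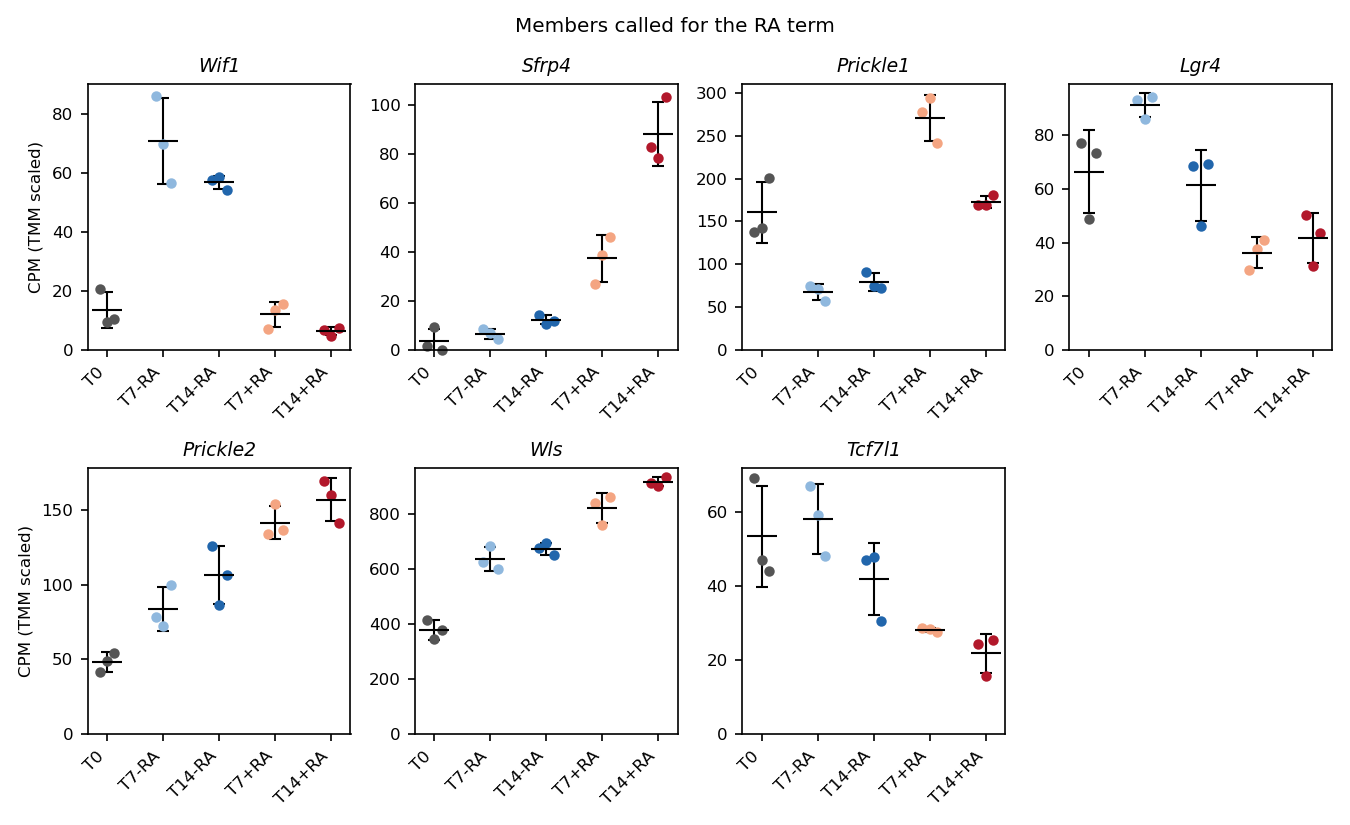
Levels (CPM, TMM scaled) of the 7 members called for the RA term in each library of the 5 groups; points are single cultures, and the horizontal line and bars are the mean and SD of 3 cultures. Every Wif1 library without RA at day 7 and day 14 lies above 54 CPM and every library with RA lies below 16 CPM, whereas Sfrp4 and Prickle1 lie higher in all RA cultures than in cultures of the same day without RA.

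For T7, 9 of 41 members were called (22.0%), where 8.73% of all genes were. The T7 count was 5 without T0 replicate 1, without T7-RA replicate 2 or without T7-RA replicate 3, and 5 in DESeq2. Wif1, Prickle2 and Wls were higher, and Fzd4, Fzd7, Nkd2, Prickle1, Rspo1 and Wnt4 were lower. For T14, 11 members were called (26.8%), where 17.3% of all genes were. Dkk3, Wif1, Prickle2 and Wls were higher, and Fzd2, Fzd4, Fzd7, Prickle1, Rspo1, Tcf7l2 and Wnt4 were lower. The count includes Dkk3, which passed the minimum summed count only through its day 14 libraries. T7 and T14 share the T0 libraries, so their lists are not independent. Over all 41 members the median log2 change was -0.21 for T7 (0.02 over all genes), -0.19 for T14 (0.05 over all genes) and -0.03 for RA (-0.01 over all genes). The plot of all members by role sets the 3 terms side by side. In all, 15 members were called in at least 1 of the 6 comparisons and 26 in none, where 21.7% of all genes were called in at least 1. At an adjusted p under 0.05, 15 members were called for T7, 18 for T14 and 10 for RA, where 23.1%, 35.4% and 14.7% of all genes were.

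**Figure D2:**
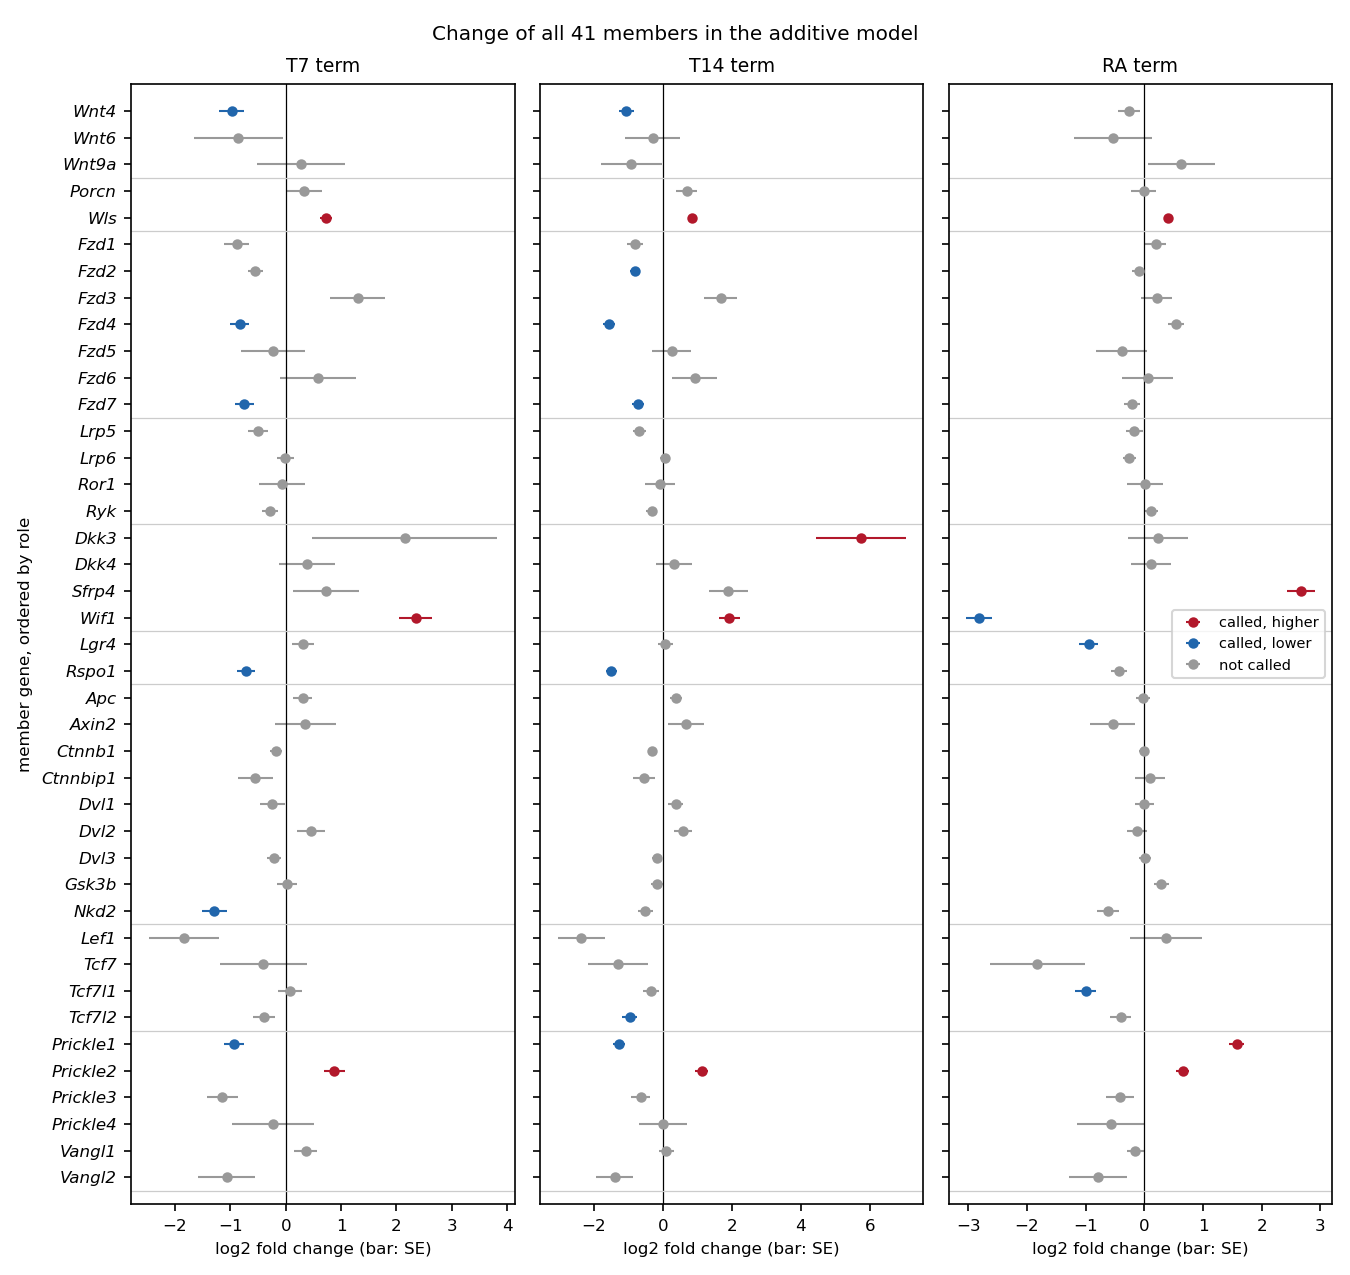
Log2 fold change of all 41 members in the T7, T14 and RA terms of the additive model, ordered by role with grey lines between roles; bars are standard errors, red and blue mark genes called higher and lower, and the horizontal scales of the 3 panels differ. The called Frizzleds lie to the left of 0 in both time panels, whereas the antagonists Wif1 and Sfrp4 lie farthest from 0 in the RA panel, on opposite sides.

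Within each day, RA was tested as T7+RA against T7-RA and as T14+RA against T14-RA, in a model with a mean for each group. At day 7, 5 members were called, where 3.17% of all genes were, and at day 14, 4 members were called, where 4.81% of all genes were. The median log2 change of the members was -0.00 at day 7 (-0.02 over all genes) and -0.24 at day 14 (-0.00 over all genes). Sfrp4, Prickle1 and Wif1 were called on both days. Lgr4 and Prickle2 were called at day 7, and Wls was called at day 14. The change with RA differed between the days for 1 member, Prickle1, at an adjusted p under 0.05, where it did for 0.743% of all genes. At an adjusted p under 0.05, 8 members were called for RA at day 7 and 6 at day 14, where 7.41% and 11.2% of all genes were. At 0.001, edgeR called no member for the difference between days, where 0.216% of all genes were called. At an unadjusted p under 0.05, 2 members were higher and 4 lower for that difference, where 8.35% of all genes passed in either direction. For the other comparisons an unadjusted p under 0.05 was reached by 34.2% of all genes for T7, 43.1% for T14, 24.8% for RA, 17.2% for RA at day 7 and 21.6% for RA at day 14. The other members called on a single day were not shown to differ between days: the day 14 change minus the day 7 change was 0.80 ± 0.313 for Lgr4 (adjusted p = 0.376), -0.22 ± 0.221 for Prickle2 (adjusted p = 0.879) and 0.08 ± 0.134 for Wls (adjusted p = 0.941).

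**Figure D3:**
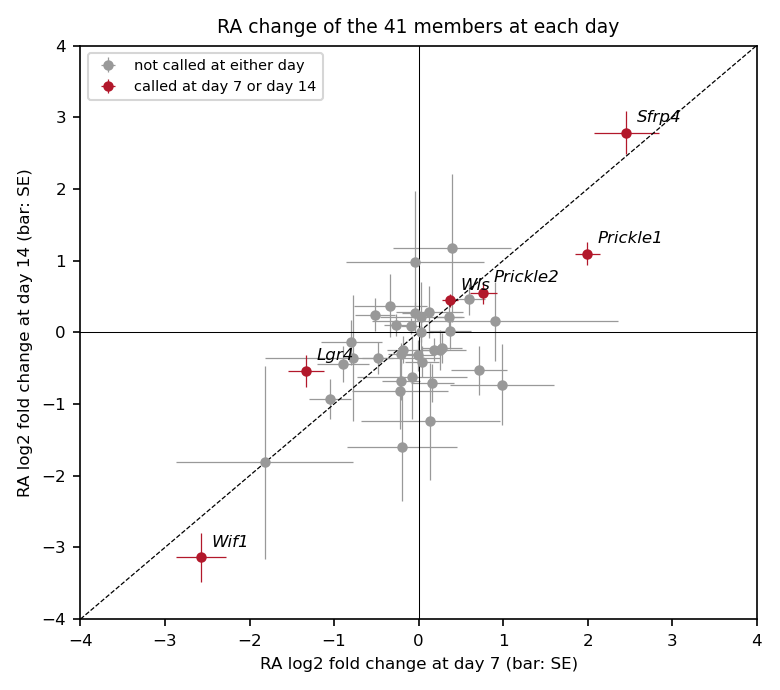
Log2 fold change with RA of the 41 members at day 7 (horizontal) and at day 14 (vertical); bars are standard errors, red marks members called on at least 1 day, and the dashed line marks equal change. Wif1 lies at -2.57 and -3.14, Sfrp4 at 2.46 and 2.78, and Prickle1 lies below the line at 2.00 and 1.10.

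The table analysed holds 3 Wnt ligand genes: Wnt4, Wnt6 and Wnt9a. Wnt4 (ENSRNOG00000013166, 5q36), a ligand that acts in kidney, gonad and muscle development, was the only ligand called, and it was lower than T0 on both days. Wnt4 stood at 63.5, 95.7 and 71.3 CPM at T0, at 34.6, 32.3 and 33.4 CPM in the T7-RA cultures and at 40.8, 37.2 and 47.4 CPM in the T14-RA cultures. With RA, Wnt4 stood at 44.2, 30.9 and 37.7 CPM at day 7 and at 20.3, 29.9 and 29.0 CPM at day 14. All 3 T0 cultures lay above all 12 later cultures. The change was -0.98 ± 0.222 (adjusted p = 0.000589) for T7 and -1.06 ± 0.225 (adjusted p = 0.000116) for T14. With RA at day 14 the 3 cultures lay below all cultures without RA of that day, but the change, -0.71 ± 0.265, was not called (adjusted p = 0.0723). The T7 call was lost without T0 replicate 2, at -0.79 (adjusted p = 0.0136), and also without T0 replicate 3 or any T7-RA library, at values from -0.90 to -1.01, and in DESeq2 (-0.99), limma-trend (-0.92) and with library size only (-0.87), and the T14 call was lost without T0 replicate 2, at -0.87 (adjusted p = 0.00416). Wnt6 and Wnt9a held at most 4 and 8 counts in a library and were called in no comparison.

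The carrier of Wnt ligands was higher in every later group than at T0, and higher with RA than without. Wls (ENSRNOG00000036816, 2q45), which brings Wnt proteins to the cell surface, was the member with the most counts. Wls stood at 415, 343 and 377 CPM at T0, at 625, 684 and 599.8 CPM in the T7-RA cultures and at 675, 694 and 650.2 CPM in the T14-RA cultures. With RA, Wls stood at 841, 761 and 862 CPM at day 7 and at 913, 902 and 935 CPM at day 14. The 5 groups did not overlap except T7-RA with T14-RA, and RA cultures lay above those without RA on each day. The change was 0.72 ± 0.104 (adjusted p = 1.74e-07) for T7, 0.85 ± 0.105 (adjusted p = 1.33e-09) for T14 and 0.41 ± 0.0731 (adjusted p = 1.93e-05) for RA. At each day it was 0.37 ± 0.0951 (adjusted p = 0.00623) and 0.44 ± 0.0949 (adjusted p = 0.000383), so that only the day 14 value passed the threshold. The day 14 call was lost without any 1 of the 6 libraries of that day, at values from 0.42 to 0.47, and in limma-trend (0.44). Porcn, the enzyme that attaches the lipid to Wnt proteins, was called in no comparison, with 0.68 ± 0.308 for T14. Per kilobase, Wls rose from 93.4 ± 8.87 at T0 to 226 ± 4.21 CPM per kb in T14+RA, while Porcn stood at 10.5 ± 3.19 and 15.5 ± 1.82 CPM per kb.

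Of the 7 Frizzled receptors, Fzd4 was lower at both times, Fzd7 at both times and Fzd2 at T14, and no Frizzled was called for RA. These are 2 of 7 for T7 and 3 of 7 for T14, where 8.73% and 17.3% of all genes were called. DESeq2 and limma-trend each called 1 Frizzled for T7 and 2 for T14. The summed level of the 7 genes was 201 ± 10.9 CPM per kb at T0. It was 137 ± 7.93 CPM per kb at day 7 and 119 ± 15.6 CPM per kb at day 14 without RA, and 129 ± 13.3 and 120.1 ± 6.84 CPM per kb with RA. Fzd2 made up 54.5% ± 3.41 (SD) of that sum at T0 and 51.3% ± 6.47 (SD) in T14+RA, with Fzd7 next at 24.4% ± 4.51 and 22.1% ± 4.02.

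Fzd2 (ENSRNOG00000021962, 10q32.1) had the highest level per length of the family in every group. Fzd2 stood at 207, 218 and 203 CPM at T0, at 159.8, 149 and 142 CPM in the T7-RA cultures and at 122.5, 103 and 107 CPM in the T14-RA cultures. With RA, Fzd2 stood at 111, 145 and 118 CPM at day 7 and at 128, 132 and 94.3 CPM at day 14. All T0 cultures lay above all later ones. The T14 change was -0.80 ± 0.140 (adjusted p = 4.29e-06), and the T7 change, -0.55 ± 0.135, was not called (adjusted p = 0.00146). Fzd4 (ENSRNOG00000016848, 1q32), known as a receptor for norrin as well as for Wnt ligands, had the largest fall of the family at T14. Fzd4 stood at 145, 105 and 130.0 CPM at T0, at 75.2, 53.8 and 81.3 CPM in the T7-RA cultures and at 44.4, 37.2 and 52.5 CPM in the T14-RA cultures. With RA, Fzd4 stood at 111, 103 and 105 CPM at day 7 and at 53.1, 73.9 and 61.6 CPM at day 14. T14-RA and T14+RA lay below T0 with no overlap, whereas T7+RA overlapped T0. The change was -0.83 ± 0.168 (adjusted p = 0.000118) for T7 and -1.56 ± 0.179 (adjusted p = 1.55e-10) for T14. All T7+RA cultures lay above all T7-RA cultures, yet the RA term, 0.55 ± 0.138, did not pass the threshold (adjusted p = 0.00290). The T7 call was lost without T0 replicate 1, at -0.70 (adjusted p = 0.00713), and without T7-RA replicate 2, at -0.71 (adjusted p = 0.00171).

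Fzd7 (ENSRNOG00000016119, 9q31), a receptor known from muscle stem cells, was lower at both times. Fzd7 stood at 175, 113 and 130.0 CPM at T0, at 82.3, 87.4 and 81.3 CPM in the T7-RA cultures and at 90.1, 63.8 and 103 CPM in the T14-RA cultures. With RA, Fzd7 stood at 58.4, 83.2 and 78.8 CPM at day 7 and at 64.6, 75.4 and 83.4 CPM at day 14. T0 replicate 1 was the highest culture, and the other T0 cultures still lay above all later ones. The change was -0.75 ± 0.165 (adjusted p = 0.000426) for T7 and -0.73 ± 0.167 (adjusted p = 0.000375) for T14. Both calls rest on T0 replicate 1: without it they were -0.51 (adjusted p = 0.0486) for T7 and -0.48 (adjusted p = 0.0472) for T14. They were also lost without any 1 of the T7-RA libraries (-0.72 to -0.76) for T7 and without T14-RA replicate 1 (-0.76) or replicate 2 (-0.62) for T14, and both were lost in DESeq2 (-0.75 and -0.72), in limma-trend (-0.70 and -0.68) and with library size only (-0.64 and -0.62). In limma-voom the T7 call was lost (-0.73). Fzd1, Fzd3, Fzd5 and Fzd6 were called in no comparison, with T14 changes from -0.82 (Fzd1) to 1.68 (Fzd3). The T14 values of Fzd3, Fzd5 and Fzd6 were above 0, where those of the other 4 were below it. Fzd3 had the largest, 1.68 ± 0.480, which did not pass the threshold (adjusted p = 0.00422) but did without T0 replicate 2 (2.46, adjusted p = 0.000772). The T7 value of Fzd1, -0.89 ± 0.227 (adjusted p = 0.00247), was called without T14+RA replicate 2 (-0.94, adjusted p = 0.000598). For RA, 1 Frizzled, Fzd4, had an unadjusted p under 0.05 in edgeR, and limma-voom, limma-trend and DESeq2 also called 0 of 7, which is near the 6.39% of all genes called for RA.

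None of the 4 co-receptors and Wnt-binding tyrosine kinase receptors passed the edgeR test in any of the 6 comparisons, where 21.7% of all genes passed in at least 1, so a count of 0 among 4 genes is near the share over all genes. Lrp6, a co-receptor of the canonical branch, had log2 values of -0.00 ± 0.148 for T7, 0.07 ± 0.149 for T14 and -0.26 ± 0.111 for RA. Ryk, a kinase-dead receptor with a Wnt-binding domain, stood at 67.1 ± 9.85 CPM per kb at T0, the highest of the 4, with -0.32 ± 0.155 for T14. Lrp5, the close relative of Lrp6, stood at -0.69 ± 0.189 for T14 (adjusted p = 0.00280), the nearest of the 4 to the threshold, and was called without T0 replicate 2 (-0.87, adjusted p = 0.000204). Ror1, a receptor for Wnt5a, held 2 to 13 counts in a library. With edgeR, the count with an unadjusted p under 0.05 was 2 for T14, 1 each for T7, RA and RA at day 14, and 0 for the remaining comparisons, and limma-voom, limma-trend and DESeq2 called 0 of 4 in every comparison.

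The largest changes with RA among the members were those of 2 secreted antagonists, and the antagonist with the highest level differed between cultures with and without RA. Without RA, Wif1 made up 77.1% ± 6.92 of the summed antagonist level per kb at day 7 and 66.8% ± 3.88 at day 14, against 5.41% ± 1.12 and 11.2% ± 2.05 for Sfrp4 (mean and SD over 3 cultures). With RA, Wif1 made up 20.5% ± 3.47 at day 7 and 6.56% ± 1.08 at day 14, and Sfrp4 50.5% ± 1.63 and 72.0% ± 6.93. The ranges of both shares in RA cultures did not overlap those of the same day without RA. The summed level itself was 12.5 ± 2.27 CPM per kb at T0. Without RA it was 40.8 ± 6.15 CPM per kb at day 7 and 37.9 ± 1.00 CPM per kb at day 14, and with RA 25.5 ± 5.88 and 42.2 ± 2.53 CPM per kb. At day 14 the ranges of the sum with and without RA lay apart by less than 1 CPM per kb, at 36.8 to 38.7 without RA and 39.5 to 44.6 with RA.

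**Figure D4:**
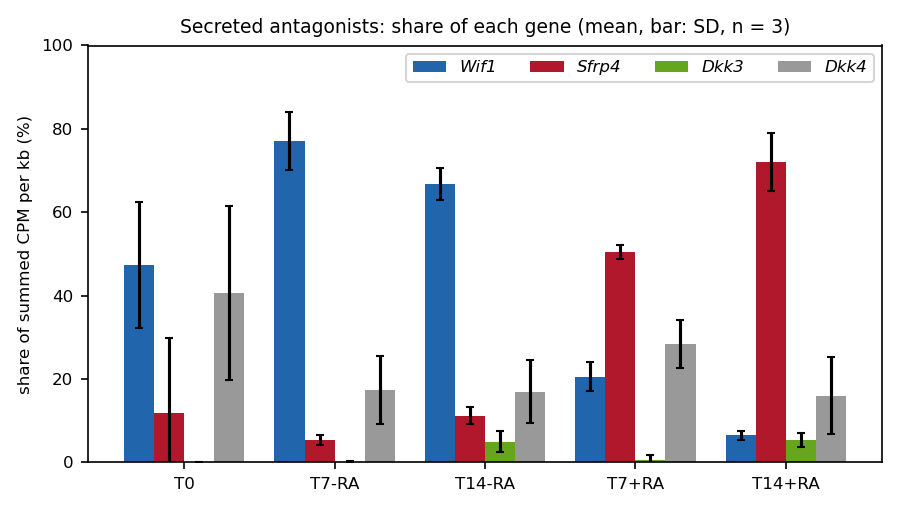
Share (%) of each secreted antagonist in their summed level (CPM per kb) by group; bars are means and error bars SDs of 3 cultures. Wif1 holds the largest mean share in the T7-RA and T14-RA cultures and Sfrp4 in the T7+RA and T14+RA cultures, with Dkk4 at 16.0% to 40.6% and Dkk3 at 0% to 5.38%.

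Wif1 (ENSRNOG00000004476, 7q22), Wnt inhibitory factor 1, binds Wnt ligands outside the cell and keeps them from their receptors. Wif1 stood at 20.7, 9.38 and 10.5 CPM at T0, at 85.9, 69.9 and 56.6 CPM in the T7-RA cultures and at 57.7, 58.4 and 54.2 CPM in the T14-RA cultures. With RA, Wif1 stood at 7.13, 13.4 and 15.4 CPM at day 7 and at 6.75, 4.71 and 7.25 CPM at day 14. Cultures without RA at day 7 and day 14 lay above all others, and the T7+RA cultures overlapped T0. The change was 2.35 ± 0.291 (adjusted p = 3.85e-09) for T7, 1.92 ± 0.307 (adjusted p = 7.70e-07) for T14 and -2.81 ± 0.224 (adjusted p = 1.02e-15) for RA, the largest fall with RA among the members. The change with RA was -2.57 ± 0.293 (adjusted p = 2.22e-10) at day 7 and -3.14 ± 0.345 (adjusted p = 5.16e-11) at day 14. At T0, 15 of the 25 Wif1 counts were in replicate 1, and over the fits that left out 1 library the T7 value ranged from 2.14 to 2.88 and the RA value from -2.95 to -2.71, with every call kept.

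Sfrp4 (ENSRNOG00000054957, 17q11), a secreted protein with a Frizzled-like domain that binds Wnt ligands, was at the edge of detection at T0, with 1, 5 and 0 counts. Sfrp4 stood at 1.38, 9.38 and 0 CPM at T0, at 8.35, 6.72 and 4.36 CPM in the T7-RA cultures and at 14.4, 10.6 and 11.9 CPM in the T14-RA cultures. With RA, Sfrp4 stood at 27.1, 38.9 and 46.3 CPM at day 7 and at 83.0, 78.6 and 103 CPM at day 14. Every RA culture lay above every culture without RA, and T14+RA lay above T7+RA. The change was 2.66 ± 0.236 (adjusted p = 5.49e-14) for RA, 2.46 ± 0.384 (adjusted p = 1.37e-06) at day 7 and 2.78 ± 0.298 (adjusted p = 2.18e-11) at day 14. The T14 change, 1.90 ± 0.561, was not called in edgeR (adjusted p = 0.00553), but it was in limma-trend (1.62, adjusted p = 0.000440) and without T0 replicate 2, which holds the 5 counts (3.76, adjusted p = 0.000185). Wif1 and Sfrp4 both have libraries under 10 counts, so neither was tested when 10 counts in every library were required.

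Dkk3 (ENSRNOG00000016343, 1q33), a divergent member of the Dickkopf family, was detected mainly at day 14. Dkk3 stood at 0, 0 and 0 CPM at T0, at 1.19, 0 and 0 CPM in the T7-RA cultures and at 14.4, 7.08 and 6.77 CPM in the T14-RA cultures. With RA, Dkk3 stood at 0, 2.68 and 0 CPM at day 7 and at 8.68, 9.43 and 16.3 CPM at day 14. T0 held 0 counts in all 3 libraries, and the later groups held 1 count at day 7 and 20 at day 14 without RA, and 2 and 24 counts with RA. With 47 counts in all, Dkk3 passed the authors' minimum summed count only through the day 14 groups, where it was high. The T14 call and the fold values below depend on that selection and are description only. Against a floor of 3 counts over the T0 group, Dkk3 was at least 5.82-fold higher in T14-RA and at least 6.24-fold higher in T14+RA. T14-RA held 22.9 times the level of T7-RA, with a 95% interval of 3.65 to 947 that covers counting error only. The T14 call had an adjusted p of 0.000353, and its fitted fold change depends on how counts of 0 are handled. The call was lost without any 1 T0 library (adjusted p = 0.00143 to 0.00366), without T14-RA replicate 1 (adjusted p = 0.00512), which holds 12 of the 20 counts, and in DESeq2 (adjusted p = 0.00197). The fibroblast markers Dcn and Lum were likewise at 0 at T0 and higher at day 14, though Lum stood at only 6.24 ± 1.34 CPM in T14+RA. Col1a1 and Thy1, of the same list, had lower means at day 14 than at T0, with and without RA. The part of these markers in the change of Dkk3 was not tested. Dkk4, an antagonist that binds Lrp5 and Lrp6, was called in no comparison and held 2 to 14 counts in a library.

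Of the R-spondin module, the ligand Rspo1 was lower at both times, and the receptor Lgr4 was lower with RA. Rspo1 (ENSRNOG00000009656, 5q36), a secreted enhancer of Wnt signalling, was highest at T0. Rspo1 stood at 132, 150.1 and 134 CPM at T0, at 87.1, 84.7 and 84.2 CPM in the T7-RA cultures and at 44.4, 56.7 and 44.0 CPM in the T14-RA cultures. With RA, Rspo1 stood at 58.4, 68.5 and 54.8 CPM at day 7 and at 36.7, 33.0 and 43.5 CPM at day 14. T0 lay above all other cultures, and T7-RA lay above the remaining groups. The change was -0.72 ± 0.156 (adjusted p = 0.000335) for T7 and -1.49 ± 0.169 (adjusted p = 9.92e-11) for T14. The RA term, -0.43 ± 0.141, was not called (adjusted p = 0.0259). The T7 call was lost without T0 replicate 1 or 2 or any T7-RA library, at values from -0.66 to -0.75, and in DESeq2 (-0.73), limma-trend (-0.72) and with library size only (-0.61), whereas the T14 call was kept in every fit that left out 1 library, at -1.55 to -1.42.

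Lgr4 (ENSRNOG00000005715, 3q34), a receptor for R-spondins, was called for RA and for neither time. Lgr4 stood at 77.3, 48.8 and 73.4 CPM at T0, at 93.0, 86.0 and 94.4 CPM in the T7-RA cultures and at 68.5, 46.0 and 69.4 CPM in the T14-RA cultures. With RA, Lgr4 stood at 29.9, 37.6 and 41.1 CPM at day 7 and at 50.2, 31.4 and 43.5 CPM at day 14. At day 7 the groups with and without RA lay far apart, whereas at day 14 T14+RA replicate 1 lay above T14-RA replicate 2. The RA term was -0.95 ± 0.162 (adjusted p = 7.30e-06), with -1.34 ± 0.214 (adjusted p = 2.58e-06) at day 7 and -0.54 ± 0.222 (adjusted p = 0.122) at day 14. The T7 and T14 changes were 0.31 ± 0.202 and 0.07 ± 0.211. Summed per kb, Rspo1 and Lgr4 stood at 100.5 ± 1.31 CPM per kb at T0 and 34.0 ± 5.05 CPM per kb in T14+RA.

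Of the 9 cytoplasmic transducers, 1 was called, for T7 alone, which is near the 8.73% of all genes called for T7. Nkd2 (ENSRNOG00000016103, 1p11), a Dishevelled-binding inhibitor of the pathway, had its lowest mean level in T7+RA. Nkd2 stood at 55.2, 78.8 and 92.2 CPM at T0, at 23.9, 40.3 and 33.4 CPM in the T7-RA cultures and at 42.0, 49.6 and 55.9 CPM in the T14-RA cultures. With RA, Nkd2 stood at 14.25, 20.1 and 17.1 CPM at day 7 and at 31.8, 40.9 and 36.3 CPM at day 14. T0 lay above all day 7 cultures, and all T7+RA cultures lay below all T7-RA cultures. The T7 change was -1.29 ± 0.228 (adjusted p = 1.43e-05), the T14 change -0.52 ± 0.219 (adjusted p = 0.0585) and the RA term -0.62 ± 0.194 (adjusted p = 0.0200). Ctnnb1, which encodes β-catenin, had the highest level of the transducers, at 172 ± 14.9 CPM per kb at T0 and 143 ± 7.15 CPM per kb in T14+RA. Its changes were -0.17 ± 0.109 for T7, -0.31 ± 0.111 for T14 and -0.01 ± 0.0832 for RA. Apc and Axin2, scaffolds of the β-catenin destruction complex, Gsk3b, its kinase, Ctnnbip1, a protein that binds β-catenin and keeps it from TCF factors, and the Dishevelled genes Dvl1, Dvl2 and Dvl3 were called in no comparison. Their RA changes ran from -0.54 (Axin2) to 0.29 (Gsk3b). Axin2, often read as a target of the canonical branch, held 2 to 10 counts in a library, so a change could have gone undetected. For RA, edgeR gave an unadjusted p under 0.05 for 2 of 9 transducers, and limma-voom, limma-trend and DESeq2 called 0 of 9.

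Of the TCF/LEF factors, Tcf7l1 was called lower for RA and Tcf7l2 was called lower for T14. Their summed level was 45.2 ± 6.86 CPM per kb at T0, and at day 14 it was 26.1 ± 3.34 CPM per kb without RA and 15.5 ± 3.54 CPM per kb with RA. Tcf7l1 (ENSRNOG00000014753, 4q31), known mainly as a repressor of Wnt target genes, separated the cultures by RA. Tcf7l1 stood at 69.0, 46.9 and 44.0 CPM at T0, at 66.8, 59.1 and 47.9 CPM in the T7-RA cultures and at 46.8, 47.8 and 30.5 CPM in the T14-RA cultures. With RA, Tcf7l1 stood at 28.5, 28.2 and 27.4 CPM at day 7 and at 24.1, 15.7 and 25.4 CPM at day 14. All 6 RA cultures lay below all cultures without RA. The RA term was -0.998 ± 0.184 (adjusted p = 3.04e-05), and the changes at each day, -1.05 ± 0.248 (adjusted p = 0.00205) and -0.93 ± 0.277 (adjusted p = 0.0162), were not called. Without T0 replicate 2 the day 7 change was called (-1.05, adjusted p = 0.000971). Tcf7l2 (ENSRNOG00000049232, 1q55), a main partner of β-catenin, was lowest in T14+RA. Tcf7l2 stood at 92.4, 73.2 and 73.4 CPM at T0, at 71.6, 52.4 and 47.9 CPM in the T7-RA cultures and at 43.2, 46.0 and 45.7 CPM in the T14-RA cultures. With RA, Tcf7l2 stood at 68.4, 43.0 and 37.7 CPM at day 7 and at 28.0, 22.0 and 34.4 CPM at day 14. All T0 cultures lay above all later ones, and T14+RA lay below T14-RA. The T14 change was -0.97 ± 0.214 (adjusted p = 0.000219), and the RA term was -0.40 ± 0.171 (adjusted p = 0.112). The T14 call was lost without T0 replicate 1, at -0.81 (adjusted p = 0.00974), and in DESeq2 (adjusted p = 0.00131) and limma-trend (adjusted p = 0.00136). Lef1 and Tcf7 held at most 10 and 6 counts in a library and were called in no comparison. Lef1 held 20 counts over the T0 group and 3 over T14-RA, a ratio of 7.64 with a 95% counting interval of 2.27 to 40.1, and its T14 change was -2.38 ± 0.682 (adjusted p = 0.00433).

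In the planar polarity core, 2 of 6 genes were called for RA, both higher, where 6.39% of all genes were called, and the RA values of the other 4 were below 0. Prickle1 (ENSRNOG00000022772, 7q35), a cytoplasmic protein of the polarity complex, was lower than T0 on both later days without RA. It was higher with RA than without on each day. Prickle1 stood at 138, 143 and 201 CPM at T0, at 75.2, 71.2 and 56.6 CPM in the T7-RA cultures and at 91.3, 74.4 and 72.8 CPM in the T14-RA cultures. With RA, Prickle1 stood at 278, 294 and 242 CPM at day 7 and at 169, 169.7 and 181 CPM at day 14. T7-RA and T14-RA lay below every other culture, T7+RA lay above every other culture, and T14+RA overlapped T0. The change was -0.93 ± 0.175 (adjusted p = 5.99e-05) for T7, -1.27 ± 0.177 (adjusted p = 9.22e-08) for T14 and 1.57 ± 0.128 (adjusted p = 6.53e-14) for RA. With RA, Prickle1 was higher by 2.00 ± 0.150 (adjusted p = 2.89e-17) at day 7 and 1.10 ± 0.158 (adjusted p = 1.44e-07) at day 14. The day 14 change minus the day 7 change was -0.90 ± 0.225 (adjusted p = 0.0286), so the additive RA term lies between unequal values for the 2 days and the T7 and T14 terms shift with it. Without RA the mean was lower at day 7 than at day 14, at 67.7 ± 9.75 and 79.5 ± 10.2 CPM against 161 ± 35.3 CPM at T0, whereas the T14 term is the larger fall, so no order of the days is read from these terms. That difference missed the threshold of 0.05 in limma-trend (adjusted p = 0.0660), in DESeq2 (adjusted p = 0.0597) and in 6 of the 15 fits that left out 1 library. In those 6 it was -0.93 (adjusted p = 0.0579) without T7-RA replicate 2, -0.81 (adjusted p = 0.105) without T7-RA replicate 3, -0.79 (adjusted p = 0.253) without T14-RA replicate 1, -0.88 (adjusted p = 0.0730) without T7+RA replicate 1, -0.83 (adjusted p = 0.106) without T7+RA replicate 2 and -0.88 (adjusted p = 0.0850) without T14+RA replicate 1. The T7 call was lost without T0 replicate 3, at -0.75 (adjusted p = 0.00219).

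Prickle2 (ENSRNOG00000012364, 4q34), its close relative, rose with time as well as with RA, where Prickle1 fell below T0 only in the later cultures without RA. Prickle2 stood at 41.4, 48.8 and 54.5 CPM at T0, at 78.7, 72.6 and 100.2 CPM in the T7-RA cultures and at 126, 86.8 and 107 CPM in the T14-RA cultures. With RA, Prickle2 stood at 134, 154 and 137 CPM at day 7 and at 169.8, 160.3 and 141 CPM at day 14. T0 lay below all later cultures, and the RA cultures of each day lay above those without RA. The change was 0.88 ± 0.191 (adjusted p = 0.000368) for T7, 1.13 ± 0.189 (adjusted p = 2.00e-06) for T14 and 0.66 ± 0.112 (adjusted p = 7.89e-06) for RA, with 0.77 ± 0.159 (adjusted p = 0.000348) at day 7 and 0.55 ± 0.152 (adjusted p = 0.00836) at day 14. The day 7 RA call was lost without T7-RA replicate 1 or 2 or any T7+RA library, at 0.68 to 0.81, and in DESeq2 (adjusted p = 0.00291) and limma-trend (adjusted p = 0.00282). The T7 call was lost without T0 replicate 1 or 2 or T7-RA replicate 3, at 0.77 to 0.90, and in DESeq2 (adjusted p = 0.00124) and limma-voom (adjusted p = 0.00151). Per kilobase, Prickle1 stood above Prickle2 at T0, at 35.8 ± 7.87 against 6.28 ± 0.857 CPM per kb, and the pair stood at 17.7 ± 2.28 and 13.9 ± 2.56 CPM per kb in T14-RA and at 38.6 ± 1.55 and 20.5 ± 1.88 CPM per kb in T14+RA. Prickle3, Prickle4, Vangl1 and Vangl2, the last 2 being the membrane partners of Prickle proteins, were called in no comparison. Their RA changes ran from -0.79 (Vangl2) to -0.15 (Vangl1). Prickle3 came nearest to the threshold, with -1.15 ± 0.280 for T7 (adjusted p = 0.00140), and was called with the replicate block (-1.16, adjusted p = 0.000980).

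The plot of the members called for time alone gives the remaining 8 called genes by library.

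**Figure D5:**
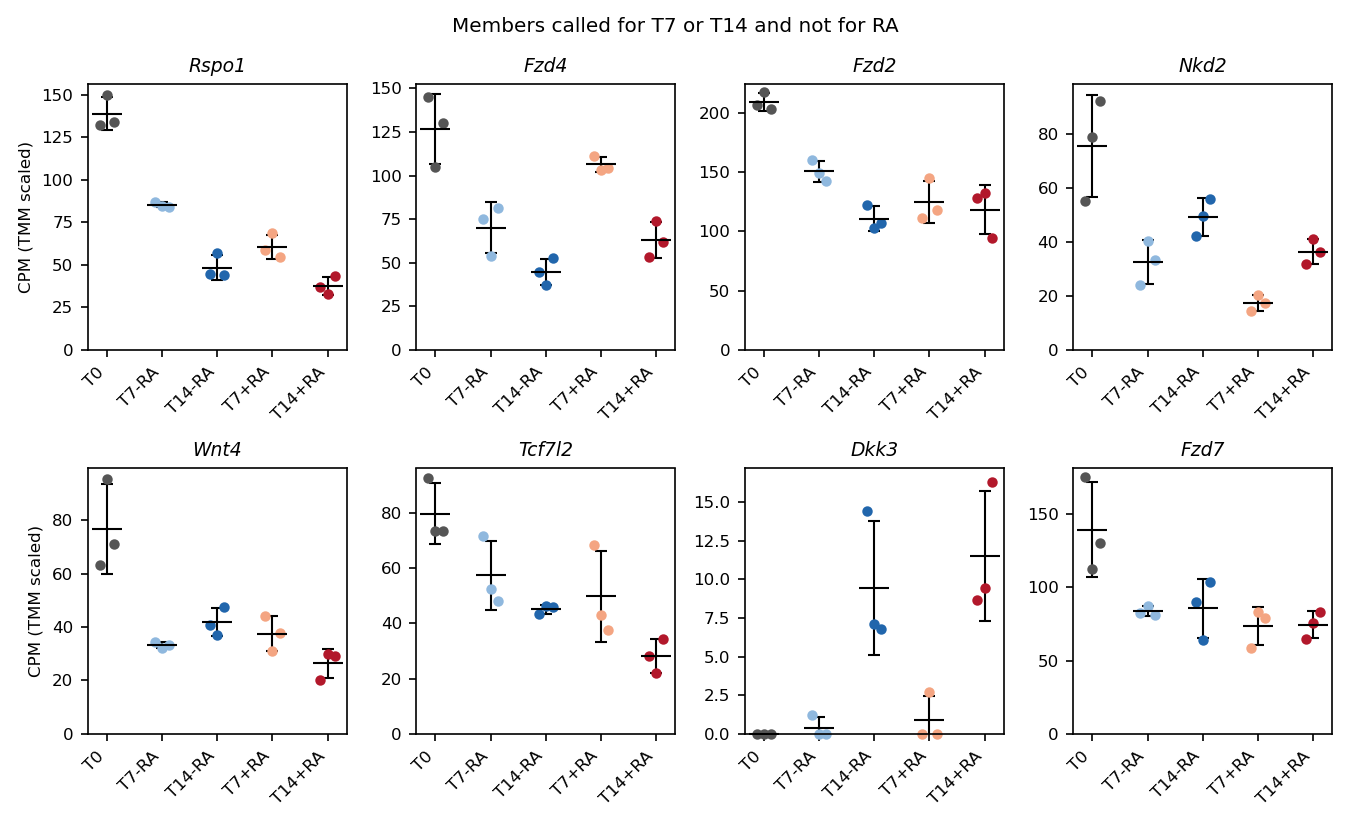
Levels (CPM, TMM scaled) of the 8 members called for T7 or T14 and not for RA, in each library of the 5 groups; points are single cultures, and the horizontal line and bars are the mean and SD of 3 cultures. The T0 points lie above all later ones for Rspo1, Fzd2, Wnt4, Tcf7l2 and Fzd7, and above the day 7 ones for Nkd2, whereas Dkk3 is at 0 in all T0 cultures.

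Promoter sequences were read for the members called for RA, so that the sequence around their starts can be read beside their changes. RefSeq entries of the GRCr8 build, 300 bases around each annotated start, existed for 6 of these 7 genes and for 32 of the 41 members. The Wif1 window lies at chr7:58433329-58433628, plus strand, the Prickle1 window at chr7:126537505-126537804, minus strand and the Tcf7l1 window at chr4:106403372-106403671, minus strand. They are shown because Wif1 fell and Prickle1 rose the most with RA among the members with an entry, and Tcf7l1 is the TCF factor called lower with RA. Capitals mark a match to a searched motif.
Wif1: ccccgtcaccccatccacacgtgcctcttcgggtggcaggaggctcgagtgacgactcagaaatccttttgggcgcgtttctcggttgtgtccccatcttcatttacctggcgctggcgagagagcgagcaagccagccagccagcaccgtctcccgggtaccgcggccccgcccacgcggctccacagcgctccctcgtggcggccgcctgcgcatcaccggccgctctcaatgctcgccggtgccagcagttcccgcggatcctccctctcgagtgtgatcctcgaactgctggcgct
Prickle1: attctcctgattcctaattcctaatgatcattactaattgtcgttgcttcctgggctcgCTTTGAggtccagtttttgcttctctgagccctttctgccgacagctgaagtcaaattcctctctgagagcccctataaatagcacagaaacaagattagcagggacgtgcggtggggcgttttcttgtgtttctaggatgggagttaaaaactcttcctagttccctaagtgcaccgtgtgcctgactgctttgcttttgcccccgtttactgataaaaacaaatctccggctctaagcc
Tcf7l1: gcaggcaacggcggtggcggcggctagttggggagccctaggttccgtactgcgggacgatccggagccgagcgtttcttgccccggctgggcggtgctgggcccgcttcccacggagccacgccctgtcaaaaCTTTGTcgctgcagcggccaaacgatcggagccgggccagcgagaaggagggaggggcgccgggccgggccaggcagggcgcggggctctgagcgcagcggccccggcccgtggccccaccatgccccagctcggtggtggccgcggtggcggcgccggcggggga
Both strands were searched for AGGTCA and AGTTCA, hexamers of the kind that retinoic acid receptors bind, and for CTTTGA and CTTTGT, the core of TCF/LEF sites. CTTTGA and CTTTGT share their first 5 letters, and the end of AGGTCA or AGTTCA can share letters with the start of TCAAAG, the reverse complement of CTTTGA. The Prickle1 window holds CTTTGA at bases 60 to 65, and the Tcf7l1 window holds CTTTGT at bases 135 to 140. The Wls windows hold AGTTCA on the opposite strand, and those of Wif1, Lgr4 and Prickle2 hold no match. Of all 33469 RefSeq promoter windows of the same length, 16.2% hold AGGTCA, 14.5% AGTTCA, 16.1% CTTTGA and 18.8% CTTTGT. A match of 6 letters is a description of the sequence and no evidence of binding, and a window without a match says only that these letters are not in it.

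Beyond the members, 114 other genes of the Wnt pathway were analysed from a list of 144 symbols that included modulators at the membrane, transducers, nuclear partners, planar polarity and calcium branch genes and widely used target genes. For T7, 22 of 114 were called, 4 higher and 18 lower, where 8.73% of all genes were called, and 14 were called without T0 replicate 1. For T14, 32 were called, 8 higher and 24 lower, where 17.3% of all genes were, and for RA 12 were called, 5 higher and 7 lower, where 6.39% of all genes were. The median log2 change over the 114 genes was -0.04 for T7, -0.09 for T14 and -0.08 for RA, beside 0.02, 0.05 and -0.01 over all genes. Of the 22 widely used target genes, 5 were called for T7 and 8 for T14, all lower. Over all genes the shares called were 8.73% and 17.3%, and 17 and 14 of the 22 were not called. Among these target genes, the matricellular proteins Ccn1, Ccn2 and Ccn4 fell at T14, and Ccn5 was not called for either time. The T14 change was -2.92 ± 0.113 (adjusted p = 5.62e-30) for Ccn1, -1.84 ± 0.107 (adjusted p = 2.01e-21) for Ccn2 and -1.45 ± 0.157 (adjusted p = 2.17e-11) for Ccn4. In the RA term, which averages both days, Ccn1 and Ccn2 were higher, at 0.58 ± 0.0947 (adjusted p = 2.41e-06) and 0.58 ± 0.0854 (adjusted p = 3.17e-07), whereas Ccn5 was lower at -4.45 ± 0.192 (adjusted p = 3.21e-27). Cd44, a hyaluronan receptor, had a T14 change of -0.88 ± 0.111 (adjusted p = 2.07e-09). At the membrane, heparan sulfate proteins bind Wnt ligands and Sulf enzymes edit their sugar chains. The T14 change was -1.53 ± 0.101 (adjusted p = 2.00e-19) for Sdc1, a syndecan, and -1.75 ± 0.115 (adjusted p = 1.60e-19) for Sulf1, one such enzyme, and the T7 change of Gpc1, a glypican, was -0.85 ± 0.0952 (adjusted p = 2.18e-10). The glypican Gpc6 and the enzyme Sulf2 of the same list, named after their values were seen, were not called for either time (T14 values -0.09 ± 0.179 and 0.40 ± 0.363). Ptk7, a planar polarity co-receptor, had a T14 change of -1.22 ± 0.125 (adjusted p = 5.80e-12), and Celsr2, a planar polarity cadherin, one of -1.92 ± 0.236 (adjusted p = 1.16e-09). Lrp4, the muscle receptor for agrin, rose by 1.74 ± 0.166 (adjusted p = 3.30e-12) at T14. Igfbp4, a binding protein of insulin-like growth factors, had a T14 change of 2.15 ± 0.124 (adjusted p = 6.70e-22) and an RA change of -0.96 ± 0.0807 (adjusted p = 7.04e-15). The RA change of Ccn1 was 0.61 ± 0.122 at day 7 and 0.55 ± 0.137 at day 14, a difference that was not called (adjusted p = 0.967), and that of Ccn2 was 0.86 ± 0.0984 and 0.29 ± 0.0998. At day 14, 3 of the 22 target genes were called with RA, all lower, where 4.81% of all genes were. Ccn1 and Ccn2 were thus not called on that day. The change with RA differed between the days for 3 of the 114 genes, where it did for 0.743% of all genes. The 3 genes are named here after their values were seen and are Ccnd1, a cyclin, Ccn2 and Ppp2ca, a phosphatase subunit. The day 14 change minus the day 7 change was -0.87 ± 0.130 (adjusted p = 7.34e-06) for Ccnd1, -0.58 ± 0.140 (adjusted p = 0.0221) for Ccn2 and 2.22 ± 0.464 (adjusted p = 0.00433) for Ppp2ca.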

How the data were processed

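RNA was measured in 15 libraries of H9c2 cultures, grouped and numbered from the sample titles; a cell line field in the labels counts upward from H9c2 to H9c14 across samples and was read as a filled-down entry of the same line. The authors trimmed the reads on the Galaxy platform, mapped them with HISAT2 to Rnor_6.0 (per the submitters' processing notes) and used featureCounts to assign them to genes. The tools' versions, the release of the annotation and whether counting used strand are not given in the sources used here, so genes that overlap on opposite strands are uncertain. The authors deposited raw counts per gene, without normalization, for genes past a minimum summed count; the smallest sum was 21, and a gene had a median of 22 counts per library. A length and a cytogenetic band per gene come from the deposited annotation, and how the length was taken is not stated.

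The whole table of 11574 genes was fitted in edgeR 4.0.16 (R 4.3.3) with TMM scaling and the quasi-likelihood F test, with dispersions estimated robustly (common value 0.00962). P-values were adjusted by the Benjamini-Hochberg method within each comparison, with calls under 0.001, or under 0.05 for the RA difference between days. Standard errors are the absolute log2 fold change divided by the square root of F. The members and the wider list were chosen with earlier results of these data known. Values in every library are given for members called in any comparison. In a role with no called member the 3 with the most counts serve as examples, and of the wider list the 12 genes with the smallest adjusted p over the T7, T14 and RA terms are named. Alternatives were scaling by relative log expression or by library size alone, filterByExpr, a minimum of 10 counts in each library, limma-voom and limma-trend (limma 3.58.1), DESeq2 1.42.0, a replicate block, another threshold and each library left out. Scripts were tested on simulated data. The labels do not say that cultures of a group were grown apart, so p-values measure the spread between these libraries, which the study calls biological replicates.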

Additional observations from a re-analysis of the deposited data

Results flagged for a closer look

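The change of Prickle1 with RA differed between the days in edgeR, by the test of the difference itself. It was 2.00 ± 0.150 at day 7 and 1.10 ± 0.158 at day 14, a difference of -0.90 ± 0.225 on the log2 scale (adjusted p = 0.0286, edgeR quasi-likelihood test over 11574 genes, of which 86 were called). The call was lost in limma-trend (adjusted p = 0.0660), in DESeq2 (adjusted p = 0.0597) and in 6 of 15 fits that left out 1 library (adjusted p = 0.0579 to 0.253). All 3 T7+RA cultures lay above all 3 T14+RA cultures, at 271 ± 26.8 and 173 ± 6.95 CPM (mean and SD), and without RA the means were 67.7 ± 9.75 CPM at day 7 and 79.5 ± 10.2 CPM at day 14. The cell cycle genes summed to 1002 to 1051 CPM in T7+RA and 416 to 560.2 CPM in T14+RA. Without RA they summed to 1142 to 1192 CPM at day 7 and 593 to 673 CPM at day 14. The skeletal muscle markers summed to 1913 to 2216 CPM in T7+RA and 4134 to 4860.3 CPM in T14+RA. The part of these genes in the Prickle1 difference was not tested.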

How the results depend on the processing

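The 7 RA calls kept their direction and stayed past the threshold in all 15 fits that left out 1 library and in limma-voom, limma-trend, DESeq2, relative log expression size factors and library size only. No call of a member reversed in any fit. Of all calls of members, 9 were lost in DESeq2, 8 in limma-trend, 4 with library size only and 2 in limma-voom, none of them for RA over both days. DESeq2 called 5 members for T7 and 0 for the RA difference between days, and limma-trend called 0 for that difference. With at least 10 counts in every library, 23 members were tested, and 3 were called for RA at day 7 and 2 for RA at day 14, since Wif1 and Sfrp4 were not tested. At a threshold of 0.05 the counts of members were 15 for T7, 18 for T14 and 8 for RA at day 7, and those of the other pathway genes 42 for T7, 55 for T14 and 27 for RA, while at 0.001 the RA difference had 0. Of all genes, 23.1%, 35.4%, 14.7% and 7.41% were called at 0.05 for T7, T14, RA and RA at day 7. Library size only moved the median of all genes from 0.02 to 0.13 for T7 and from 0.05 to 0.15 for T14, and then 6 members were called for T7, 3 higher and 3 lower, in place of 3 higher and 6 lower. Leaving out 1 library gave 5 to 10 members for T7 (5 in 3 fits), 8 to 12 for T14, 7 to 7 for RA, 4 to 6 for RA at day 7, 3 to 4 for RA at day 14 and 0 to 1 for the RA difference, and 14 to 22, 25 to 32 and 10 to 14 other pathway genes for T7, T14 and RA.

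Deviations of same-numbered libraries correlated at 0.018 on average (-0.0352 to 0.0991), beside -0.009 for libraries of different number. Of the 15 libraries, 6 correlated best with their own number. Whether same-numbered cultures shared a batch was not tested. With a replicate block, 10 members were called for T7, 11 for T14, 7 for RA, 5 and 4 for RA at day 7 and day 14, and 1 for the RA difference, and 22, 34 and 14 other pathway genes for T7, T14 and RA. The shares of all genes called that are given in the text come from the main edgeR fit, without the block. Depth limits the 18 members under 10 counts in some library, where changes could go undetected.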
